A study of Mus musculus with 8 samples.

Results

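Regulatory T cells (Tregs) hold a dormant form of transforming growth factor beta (TGF-β) on their surface, and 10 genes of its release and reading were followed here in Tregs of WT and IIKO chimeras. The genes were Lrrc32, Tgfb1, Furin, Itgav, Itgb8, Tgfbr1, Tgfbr2, Smad2, Smad3 and Smad7. They were taken by symbol from the 19937 genes that an Affymetrix array measured with a probe set of 1 gene symbol. Where a gene had several probe sets, the brightest over all 8 arrays was to be kept. Each of the 10 had 1 probe set, so no measured level entered that choice. The set of genes was picked with earlier results of these arrays known, the difference of Lrrc32 among them, so what follows is a description of that difference and not independent support for it.

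All recipients were CD3ε-/- mice, which make no T cells of their own, and all were lethally irradiated before they received bone marrow. The 4 WT chimeras (WT-CD3KO in the labels) received wild-type marrow, and the 4 IIKO chimeras (IIKO-CD3KO) received marrow of IIKO mice. The strain is given as C57BL/6 and the age as 6 to 8 weeks. Cells were collected 28 days after the marrow transfer from spleen and peripheral lymph nodes, sorted as CD4+ TCRβ+ CD25+, and 100 ng of total RNA per sample went on 1 array. The labels state that outside the thymus the TCR of IIKO chimera Tregs does not meet MHC class II, while that of WT chimera Tregs does, so the comparison asks which transcripts differ when that contact is missing. The labels name neither the deleted class II gene nor how many mice a sample pools. They call the samples biological replicates and say nothing more of their source, so a p-value here speaks only to the variation among these 8 samples. Radiation-resistant cells of the recipients stay those of the recipient in both groups, and an effect of the donor marrow other than on this contact cannot be told apart from it.

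As background, TGF-β1 is made as a precursor that the protease furin cuts, and the cut propeptide stays wrapped around the cytokine as a latent complex. Tregs tether this complex with GARP, the product of Lrrc32. The integrin αvβ8, built from the products of Itgav and Itgb8, pulls the latent complex open. Free TGF-β binds the type II receptor (Tgfbr2), which recruits and phosphorylates the type I receptor (Tgfbr1). The type I receptor phosphorylates Smad2 and Smad3, which enter the nucleus with Smad4, and Smad7 is induced in turn and blocks the receptor.

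Values are log2 expression after RMA, the authors' normalization, and a difference of 1 is a doubling. Differences are IIKO minus WT. A gene was called where limma's p, Benjamini-Hochberg adjusted over all 19937 genes, lay under 0.05, a rule that 0.286% of all genes met (57 genes, 32 higher and 25 lower in IIKO chimeras). An unadjusted p under 0.05 was met by 17.3%, 5.27% with a higher and 12% with a lower value in IIKO chimeras. WT and IIKO arrays did not overlap for 10.5%, of which 2.83% were higher and 7.69% lower (as shares of all genes). All 10 genes had a mean level above the median gene level of 7.10. The array medians over all probe sets lay between 6.96 and 7.03. Precision is limited by having 4 arrays per group. The sorted cells carried the Treg and T cell transcripts: all 9 measured markers (Foxp3, Il2ra, Ikzf2, Ctla4, Cd4, Cd3e, Cd3d, Cd3g and Cd5) lay above the upper quartile of gene levels, 8.53, and none of them was called. At an unadjusted limma p under 0.05 stood 2 of the 9, both higher in IIKO chimeras (22.2%, against 5.27% of all genes). Groups were separate for 3 of the 9, all higher in IIKO chimeras (2.83% of all genes). Marker differences ran from -0.07 to 0.17, with 5 positive and 4 negative. Foxp3, which encodes the Treg-defining transcription factor, differed by 0.05 ± 0.07 (SE).

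Of the 10 genes, Lrrc32 fell in IIKO chimera Tregs, as 0.125% of all genes did (0.161% rose), and the other 9 were not called. At an unadjusted limma p under 0.05 stood 5 of the 10. Lrrc32, Itgb8, Tgfbr1 and Smad7 were lower in IIKO chimeras (12% of all genes, and 7.42% of those above the median level). Furin was higher (5.27% of all genes). Of genes above the median level, 16.4% stood at this p in either direction. WT and IIKO arrays were separate for 2 of the 10, Lrrc32 (lower, as for 7.69% of all genes) and Furin (higher, as for 2.83%). Above the median level, 9.44% of genes were separate in either direction. Differences were positive for 5 genes and negative for 5 (62.9% of all genes were negative, and 46.3% of those above the median level). Their median was -0.03, against -0.04 over all genes tested and 0.01 over those above the median level. In the plot of values by array, Lrrc32 is the gene with a clear gap between the groups.

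**Figure D1:**
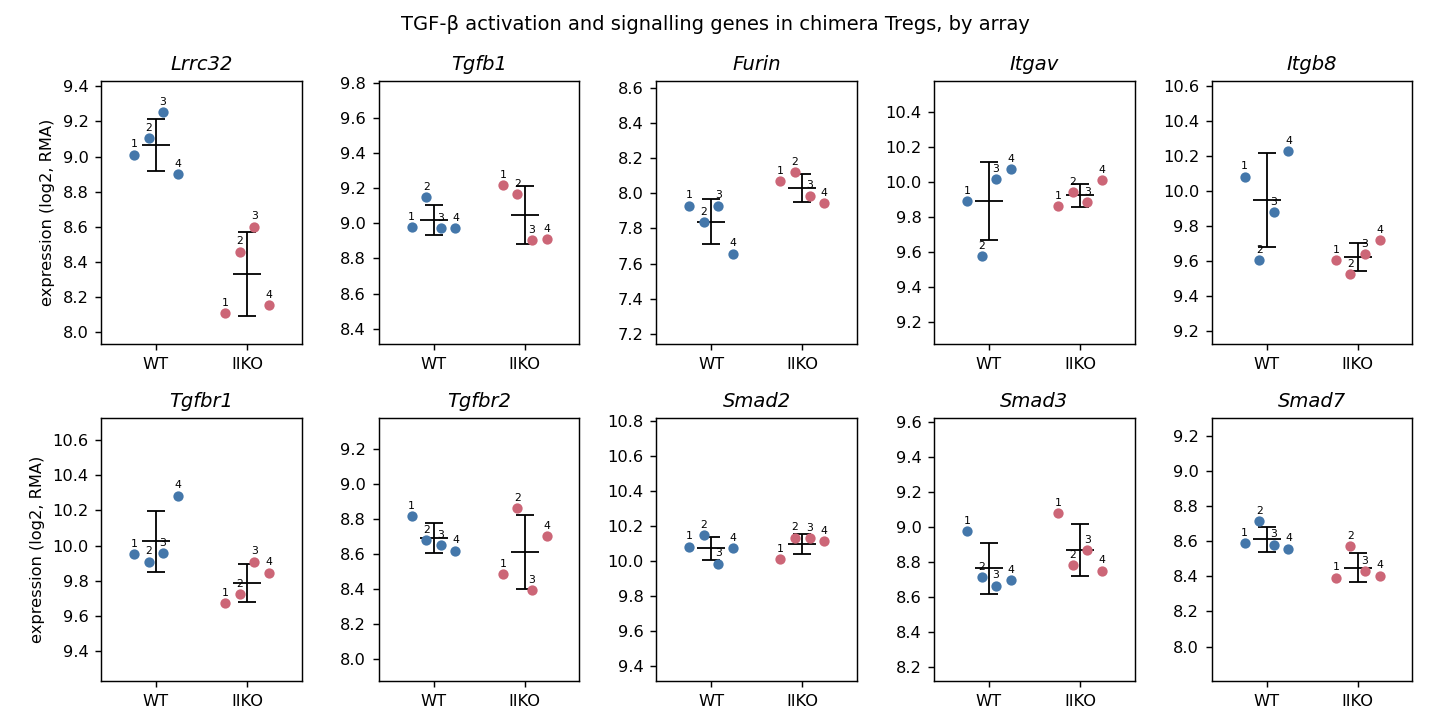
Expression of the 10 genes (log2, RMA; each panel spans the same range of 1.5 log2 units) in WT and IIKO chimera Tregs; points are arrays, numbered by replicate, and bars are mean ± SD (n = 4 arrays per group). WT arrays of Lrrc32 lie from 8.90 to 9.25 and IIKO arrays from 8.11 to 8.60, whereas the groups of Tgfb1, Itgav, Tgfbr2, Smad2 and Smad3 overlap widely.

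Lrrc32 encodes GARP, the leucine-rich repeat protein by which Tregs dock latent TGF-β. In WT chimeras it was at 9.01, 9.10, 9.25 and 8.90 (replicates 1 to 4, log2). In IIKO chimeras it was at 8.11, 8.46, 8.60 and 8.15. Every IIKO array lay below every WT array, and the highest IIKO array, replicate 3, was 0.30 below the lowest WT array, replicate 4. Means were 9.07 ± 0.15 and 8.33 ± 0.24 (SD, n = 4 arrays each). The difference was -0.74 ± 0.12 (SE), with a 95% confidence interval from -0.997 to -0.475, which is 0.501 to 0.72 of the WT level on the linear scale. By limma's p this was place 46 among all genes (adjusted p = 0.0373), and 99.7% of genes had a smaller difference in either direction. The exact permutation test over the 70 splits of the arrays, two-sided, gave p = 0.0286, the smallest it can give. Any gene with separate groups gets this p (10.5% of all genes), so it adds nothing to the separation given above. The call held in 2 of the 8 fits that left out an array, those without WT replicate 4 (adjusted p = 0.0484) or IIKO replicate 3 (0.0274). The adjusted p exceeded 0.05 without WT replicate 1 (0.0861), 2 (0.107) or 3 (0.11) or without IIKO replicate 1 (0.103), 2 (0.0788) or 4 (0.0805), while the difference stayed between -0.83 and -0.66. In bulk RNA, fewer cells that carry a transcript and less of it per cell cannot be told apart.

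Tgfb1, the cytokine that GARP holds, was at 8.97 to 9.15 in WT arrays and at 8.90 to 9.22 in IIKO arrays, so the IIKO range enclosed the WT range. The difference was 0.03 ± 0.09 (SE), and its 95% interval of -0.16 to 0.22 spans 0.896 to 1.17 of the WT level (limma adjusted p = 0.87). Its sign was not stable: it was -0.0116 once the gene table was quantile-normalized again. IIKO replicates 1 and 2 (9.22 and 9.17) stood above every WT array and replicates 3 and 4 (8.90 and 8.91) below every WT array. Replicate 1, the highest array for Tgfb1, was the lowest for Lrrc32.

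Furin encodes the protease that separates TGF-β1 from its propeptide. WT chimeras were at 7.93, 7.84, 7.93 and 7.66, and IIKO chimeras at 8.07, 8.12, 7.99 and 7.94. All IIKO arrays were higher, but the gap between the groups was 0.01. The difference of 0.19 ± 0.07 (SE) was not called (limma adjusted p = 0.236, unadjusted p = 0.0263). The exact permutation p of 0.0286, two-sided and the smallest possible, follows from the separate groups alone. The Furin difference was positive under every alternative run and between 0.13 and 0.24.

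For the integrin αvβ8, the beta chain had a lower mean in IIKO chimeras and the alpha chain had nearly equal means. Itgb8 was at 10.08, 9.61, 9.88 and 10.23 in WT chimeras and at 9.61, 9.52, 9.64 and 9.72 in IIKO chimeras. WT replicate 2 lay within the IIKO range, and the other WT arrays lay above it. Its difference was -0.33 ± 0.12 (SE), with an interval of -0.59 to -0.06, and was not called (limma adjusted p = 0.219). The WT arrays spread more than the IIKO arrays, with an SD of 0.27 against 0.08. Itgav, whose product also pairs with other beta chains, ran from 9.58 to 10.07 in WT arrays and from 9.86 to 10.01 in IIKO arrays. WT replicate 2 was also its lowest array, at 9.58, and the remaining WT arrays lay at 9.89 to 10.07. The Itgav difference was 0.04 ± 0.10 (SE; limma adjusted p = 0.875) and stood at -0.00093 after that same step.

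Of the receptor chains, Tgfbr1 was at 9.95, 9.91, 9.96 and 10.29 in WT chimeras and at 9.67, 9.72, 9.91 and 9.85 in IIKO chimeras. The highest IIKO array and the lowest WT array had the same value to 2 decimals, so the groups touched. The difference of -0.24 ± 0.09 (SE), with an interval of -0.44 to -0.03, was not called (limma adjusted p = 0.236). Without WT replicate 4, the highest WT array, it was -0.15 ± 0.07. Tgfbr2, the ligand-binding chain, ran from 8.62 to 8.82 in WT arrays and from 8.39 to 8.86 in IIKO arrays, where the spread was larger (SD 0.09 and 0.21). Its difference was -0.08 ± 0.10 (SE), with an interval of -0.30 to 0.14 (limma adjusted p = 0.687). It ran from -0.17 without IIKO replicate 2 to -0.0090 without IIKO replicate 3.

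Among the Smads, the inhibitory one had a lower mean and the receptor-activated ones did not. Smad7, which is transcribed in response to TGF-β and shuts the receptor off, was at 8.59, 8.72, 8.58 and 8.56 in WT chimeras and at 8.39, 8.57, 8.43 and 8.40 in IIKO chimeras. IIKO replicate 2 reached into the WT range, by 0.02 above its lowest array, and the other IIKO arrays lay below all WT arrays. The difference was -0.16 ± 0.06 (SE), with an interval of -0.30 to -0.02, and was not called (limma adjusted p = 0.238). Smad2 varied least of the 10, at 9.99 to 10.15 in WT arrays and 10.01 to 10.13 in IIKO arrays, and differed by 0.02 ± 0.06 (SE). The interval of Smad2, -0.10 to 0.15, was also the narrowest, at 0.932 to 1.11 of the WT level. Smad3 ran from 8.66 to 8.98 in WT arrays and from 8.75 to 9.08 in IIKO arrays, a difference of 0.11 ± 0.09 (SE; limma adjusted p = 0.555). It ran from 0.0375 without IIKO replicate 1 to 0.18 without WT replicate 1. The plot of differences shows the interval of each gene.

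**Figure D2:**
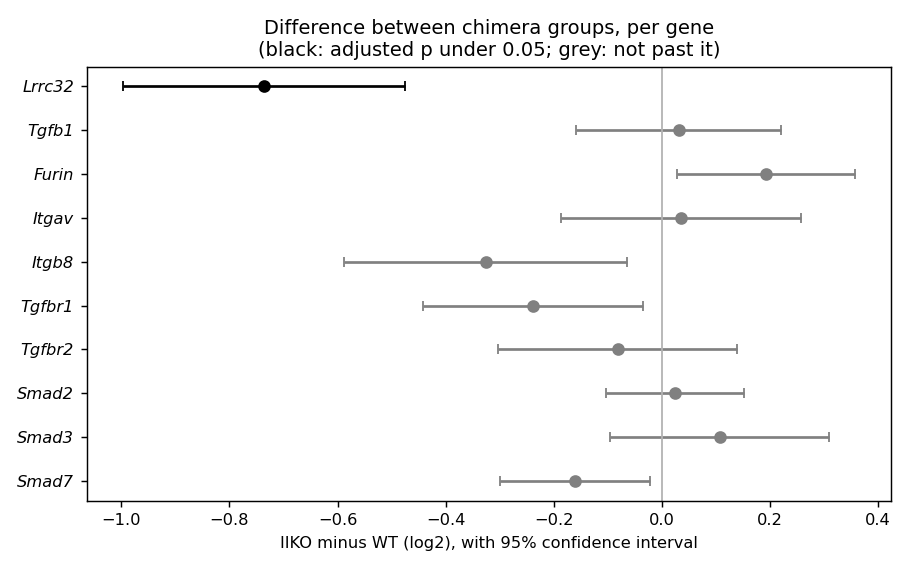
Difference between IIKO and WT chimera Tregs for each of the 10 genes (log2; bars are limma's 95% confidence intervals, n = 4 arrays per group). Lrrc32 stands at -0.74; the intervals of Itgb8, Tgfbr1, Smad7 and Furin leave out 0 without adjustment, and those of Tgfb1, Itgav, Tgfbr2, Smad2 and Smad3 include it.

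No array was extreme for all of the genes. IIKO replicate 1 was the lowest array for 3 of the 10 (Lrrc32, Tgfbr1 and Smad7) and the highest for 2 (Tgfb1 and Smad3). WT replicate 4 was the highest for 3 (Itgb8, Itgav and Tgfbr1) and the lowest for 1 (Furin). WT replicate 1 and IIKO replicate 4 were neither for any of the genes.

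The rest of the pathway was read from lists of textbook genes, 90 of 94 measured, and 0 of them were called by limma. At an unadjusted p under 0.05 stood 14, or 15.6%, near the 17.3% of all genes, with 8 higher and 6 lower. The median difference of the 90 was -0.01, against -0.04 over all genes. The plot of pathway lists shows Lrrc32 outside the range of these genes.

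**Figure D3:**
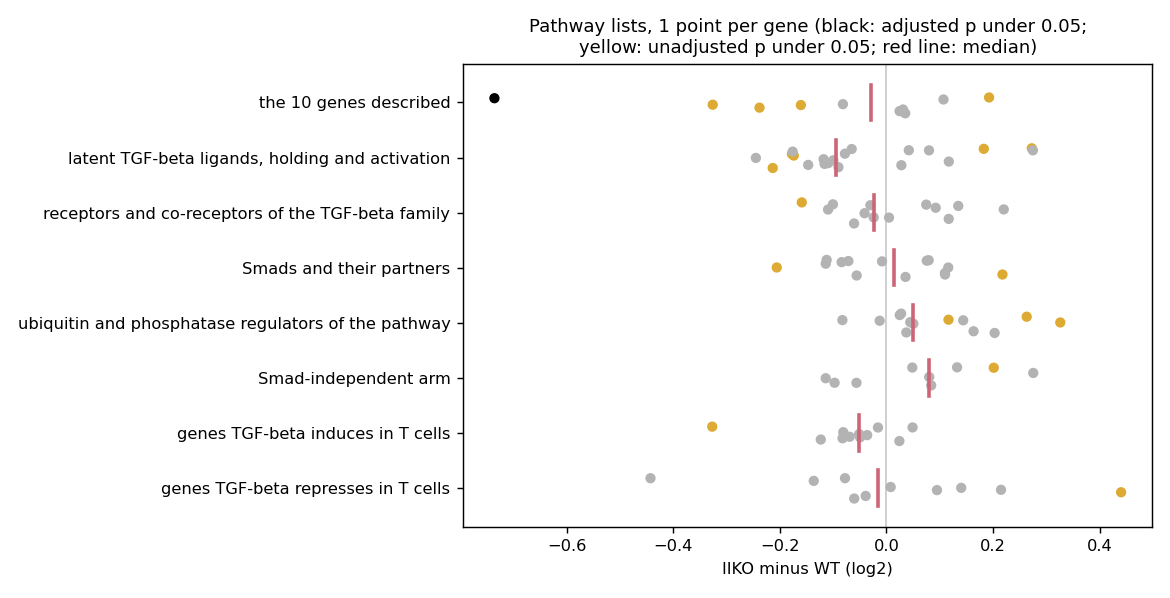
Difference between IIKO and WT chimera Tregs (log2) for the 10 genes and for the other pathway genes, grouped by role; 1 point is a gene and the red line the median of its list. Among the 90 other genes the differences run from -0.44 to 0.44, and the black point of Lrrc32 at -0.74 lies beyond them.

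Of the 20 other measured genes of latent TGF-β and its activation, 0 were called. At an unadjusted p under 0.05 stood 5, 3 lower and 2 higher (25% against 17.3% of all genes). Differences were negative for 13 of the 20, but of the 7 above the median gene level 2 were negative and 5 positive. Of all genes at or below that level 79.5% were negative. The smallest p were those of Ltbp3 (-0.21 ± 0.06, SE) and Ltbp2 (-0.17 ± 0.06), which belong to the proteins that bind latent TGF-β to the matrix, and of Itgb6 (-0.18 ± 0.06), the beta chain of another activating integrin (limma adjusted p = 0.16, 0.206 and 0.222). Itgb6 was a dim gene, at 4.65 in WT chimeras, under the lower quartile of all genes (6.04). The 2 higher genes, named after their values were seen, were Itgb1 (0.27 ± 0.10), another partner of the αv chain, and Nrros (0.18 ± 0.08), which encodes a relative of GARP that holds latent TGF-β on myeloid cells. Among the 13 other receptors and co-receptors 0 were called and 1 stood at an unadjusted p under 0.05. That was Cd109, a co-receptor that dampens signalling (-0.16 ± 0.07). Bmpr1b, a receptor for bone morphogenetic proteins, differed by -0.11 ± 0.07 and Eng, the co-receptor endoglin, by -0.10 ± 0.07.

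Of the 14 other Smads and partners 0 were called. Smad6, the second inhibitory Smad, had separate groups, with means of 6.61 ± 0.05 (WT) and 6.40 ± 0.06 (IIKO; SD, n = 4 arrays each). The difference was -0.21 ± 0.05 (SE; limma adjusted p = 0.16). Both Smad6 means lay under the median gene level of 7.10. Of all genes at or below that level, 79.5% had a negative difference and 11.6% had separate groups. Smad7, which lay above that level, also had a lower mean in IIKO chimeras, and neither gene passed the test. Tgif1, a co-repressor of Smads, differed by 0.22 ± 0.08 and Smad5, a mediator of bone morphogenetic proteins, by 0.12 ± 0.06. Regulators that act through ubiquitin or phosphate removal had 13 measured genes, 0 called, with 11 positive differences and a median of 0.05. All 13 lay above the median gene level, where 53.7% of all genes had a positive difference. Smurf1 (0.33 ± 0.09) and Wwp1 (0.26 ± 0.08) encode ubiquitin ligases that act on receptors and Smads, and Fkbp1a (0.12 ± 0.05) encodes a protein that keeps the type I receptor silent. Their limma adjusted p were 0.167, 0.176 and 0.287. In the Smad-independent arm, which runs through the kinase TAK1, 0 of 9 were called. There Tab3 differed by 0.20 ± 0.07, Tab2 by 0.13 ± 0.07 and Traf6 by 0.28 ± 0.15, the first 2 encoding adaptors of TAK1 and the last a ubiquitin ligase.

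Genes that TGF-β induces in T cells had 11 of 15 measured, 0 called and 9 negative differences, with a median of -0.05. Of the 8 with a mean above the median gene level 6 were negative, where 46.3% of all genes above that level were. Id3, a transcriptional inhibitor, differed by -0.33 ± 0.15 (SE), Runx1 by -0.12 ± 0.06 and Klf10, an early TGF-β response gene, by -0.05 ± 0.05 (limma adjusted p = 0.284, 0.333 and 0.617). Itgae, which encodes the TGF-β-induced integrin chain CD103 and was added here after its value was seen, had means of 11.03 ± 0.25 (WT) and 11.08 ± 0.22 (IIKO; SD, n = 4 arrays each). Genes that TGF-β represses had 10 measured and 0 called, 5 positive and 5 negative. Il2 was the 1 gene of them at an unadjusted p under 0.05 (0.44 ± 0.11, SE; limma adjusted p = 0.157), and its WT level was also low, at 6.01. Eomes, a factor of cytotoxic cells, differed by -0.44 ± 0.22 and Id2 by 0.22 ± 0.13.

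Of the 10 genes 3 lie on chromosome 7 (Lrrc32, Tgfb1 and Furin), which held 17 of the 57 called genes among 1734 tested there. Lrrc32 has the called genes Alg8, a glucosyltransferase gene 16 places away in gene order, and Dnajb13, 35 places away on the other side. Among the nearest 40 tested genes of Lrrc32, 20 on each side, Alg8 was the 1 called gene. It fell from 9.63 ± 0.28 to 8.71 ± 0.15 (SD, n = 4 arrays each; limma adjusted p = 0.0177). Alg8 was not called without WT replicate 1, 2 or 3, nor without IIKO replicate 2, 3 or 4 (adjusted p = 0.0600 to 0.0750). Dnajb13 was called whichever array was absent. At an unadjusted p under 0.05 stood 17 of the 40, 16 of them lower in IIKO chimeras, which is 40.0% lower against 12% of all genes. Of all genes, 79.5% of those at or below the median level and 46.3% of those above it had a negative difference, so the 21 neighbours with a mean above the median gene level were also read alone. Of these 21, 16 had a negative difference. At an unadjusted p under 0.05, 8 of them were lower, 38.1% against 7.42% of all genes above that level. Besides Alg8, Aamdc (-0.42), Kctd21 (-0.36), Serpinh1 (-0.32), Map6 (-0.28) and Omp (-0.28) had the lowest values of these 17, and they were named after their values were seen. The nearest neighbours on either side, Gucy2d (-0.17 ± 0.09, SE) and Emsy (-0.07 ± 0.09), were not called. A donor difference in the DNA around Lrrc32 was not tested, and no genotype was used here.

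Furin has the called gene Hddc3, a nucleotide hydrolase gene, 3 places away in gene order. Hddc3 rose from 7.06 ± 0.11 to 7.67 ± 0.13 (SD, n = 4 arrays each; limma adjusted p = 0.0113). Fsd2, 16 places away, fell from 6.37 ± 0.07 to 5.81 ± 0.10 (adjusted p = 0.00746). At an unadjusted p under 0.05 stood 7 of the 40 neighbours of Furin, 17.5% of them. Of the 40 neighbours of Tgfb1, 0 were called and 6 stood at an unadjusted limma p under 0.05, and the nearest called gene on the chromosome was 473 places away. Around the genes on other chromosomes, limma called 0 of the 22 neighbours of Itgb8 and 0 of the 40 each of Itgav, Tgfbr1, Tgfbr2, Smad3 and Smad7. Of these neighbours, 2 to 9 per gene stood at an unadjusted p under 0.05. The shares ran from 5% for Smad7 to 22.5% for Itgav, against 17.3% of all genes. Smad2 and Smad7 lie 4 places apart, so most of their neighbours are the same. Near Smad2 limma called 1 neighbour, Setbp1, 18 places from Smad2 and 22 from Smad7. The Setbp1 call held without IIKO replicate 4 and was lost without any other array (limma adjusted p = 0.0529 to 0.105). Hddc3 and Fsd2 were called in all 8 such fits. In the plot of chromosome 7 neighbours the points around Lrrc32 lie mostly below 0.

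**Figure D4:**
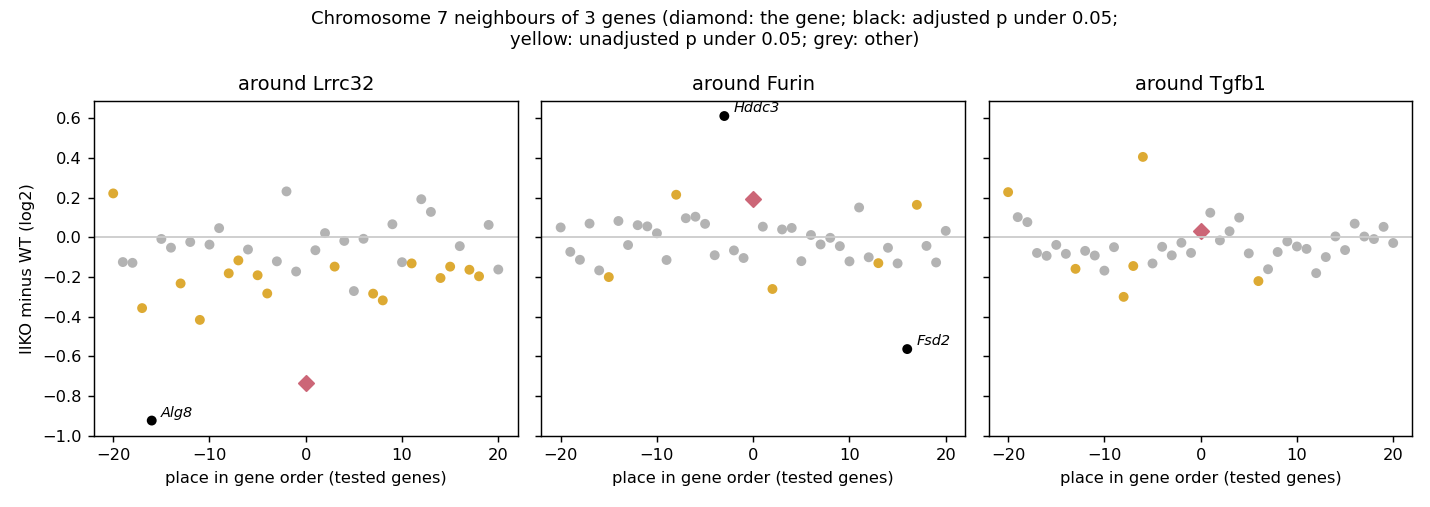
Difference between IIKO and WT chimera Tregs (log2) for the 20 tested genes on each side of Lrrc32, Furin and Tgfb1 in gene order on chromosome 7; diamonds mark the 3 genes and black points the called neighbours Alg8, Hddc3 and Fsd2. Around Lrrc32 32 of 40 neighbours lie below 0.

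Over the 8 arrays, the genes whose pattern was most like that of Lrrc32, out of 9290 named genes above the median level, were Med9 (Pearson r = 0.979), Igsf23 (0.951), Dnajb13 (0.948), Pop7 (0.943) and Cenpn (0.943). The r includes the difference between the groups, which these genes share with Lrrc32 in direction. With each group centred on its mean, r was 0.934 for Med9 and 0.933 for Pop7, and 0.731, 0.659 and 0.698 for Igsf23, Dnajb13 and Cenpn. Of the 5, Dnajb13 was called. They are the highest of many values over the same 8 arrays and are given as a description.

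GARP and TGF-β1 are also products of platelets and endothelial cells, so markers of other cells were read beside Lrrc32. The mean of 8 of 12 platelet and megakaryocyte markers lay between 6.88 and 7.40 in WT and between 6.97 and 7.29 in IIKO arrays. Pf4 was at 6.58 ± 0.85 and 7.11 ± 0.66, and Ppbp at 8.19 ± 0.77 and 8.30 ± 0.54 (SD, n = 4 arrays each), both platelet chemokines that varied widely between arrays. Of the 8 platelet markers 5 had negative differences. Limma called 0 of the 8, and 2 were lower and 0 higher by its unadjusted p under 0.05. Itga2b, the platelet integrin chain, was at 7.24 ± 0.02 and 7.20 ± 0.09. The mean of the 12 endothelial and stromal markers was lower in IIKO arrays, at 6.77 to 6.86, than in WT arrays, at 6.86 to 6.91. Of these 12 genes 3 lay above the median gene level and 11 had a negative difference, with a median of -0.09. Of all genes at or below that level 79.5% were negative, with a median of -0.07. The part of the endothelial and stromal markers in the lower Lrrc32 level was not tested. Cdh5, which defines endothelial cells, was at 6.61 ± 0.08 and 6.54 ± 0.13. The 14 myeloid and dendritic markers had means of 5.97 to 6.18 in WT and 5.87 to 6.22 in IIKO arrays, with Csf1r at 6.21 ± 0.05 and 6.21 ± 0.18 and Lyz2 at 6.00 ± 0.34 and 6.04 ± 0.52. The 10 B and plasma cell markers had means of 5.77 to 5.94 and 5.73 to 5.84. The 10 NK and CD8 T cell markers had means of 7.01 to 7.29 and 7.02 to 7.13. At an unadjusted limma p under 0.05 stood 5 of the 10 (2 higher and 3 lower), 50% against 17.3% of all genes. Separate groups were found for 4 of the 10, against 10.5% of all genes. Differences in this list ran from -0.78 for Gzma to 0.45 for Klrk1, and the smallest adjusted p was 0.0847, for Nkg7 (-0.35), which lies on chromosome 7. These 3 were named after their values were seen. Cd8a was at 6.68 ± 0.05 and 6.57 ± 0.02 (SD, n = 4 arrays each) and Ncr1 at 5.58 ± 0.15 and 5.46 ± 0.16. None of the markers was called, and their part in the other results was not tested.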

How the data were processed

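RNA of sorted Tregs was measured on 8 arrays, 4 per group as titled. What the authors deposited is a log2 value for each probe set. The submitters' processing notes name affy and RMA, which corrects background, equalizes the arrays' quantiles and sums up each probe set; no version or setting is stated there. Of 34760 probe sets, the 21640 with 1 gene symbol in the platform annotation were used, and for 954 genes with several the one with the highest mean was kept, giving 19937 genes. Gene order came from the reference table of mouse assembly GRCm38.p6. The array annotation names no build, so no coordinates are printed.

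The test was that of limma 3.58.1 under R 4.3.3 (lmFit, eBayes, no block, two-sided, 6 residual degrees of freedom), with Benjamini-Hochberg adjustment over all genes. The fit was tested on simulated data. Genes, lists and tests were chosen with earlier results of these data known. Named are the 10 genes, the 3 smallest p of each pathway list, called neighbours of Lrrc32, defining markers and the 5 genes most like Lrrc32. Alternatives were a further quantile normalization, median centring, genes above the median level, array weights, a robust variance trend, averaged probe sets, the replicate number as a block, a threshold of 0.01 and each array left out. Figures used Python 3.11.15 and matplotlib 3.10.9.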

Additional observations from a re-analysis of the deposited data

Results flagged for a closer look

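In 3 of the 20 groups of 4 arrays (10 genes in 2 groups), 1 array lay far from the other 3 by Dixon's criterion at 95%. Chance gives about 1 such group in 20. Tgfb1 was at 9.15 in WT replicate 2, with the other WT arrays at 8.97 to 8.98. Tgfbr1 was at 10.29 in WT replicate 4, the others at 9.91 to 9.96. Smad3 was at 8.98 in WT replicate 1, the others at 8.66 to 8.71. The 3 values fall in 3 different arrays.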

How the results depend on the processing

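Lrrc32 stayed lower in IIKO chimeras under every alternative run. It passed limma's test in all 7 alternatives that kept all arrays and the 0.05 threshold (differences of -0.77 to -0.69, adjusted p = 0.0102 to 0.0473), but not at 0.01 (difference -0.74), where the count of the 10 genes called was 0. Of the 7, averaging probe sets could not change its values, as Lrrc32 has 1 probe set. Genes above the median level, the robust variance trend and the replicate block also kept the Lrrc32 difference at -0.74 and changed the error or the adjustment only. With single arrays left out its difference ran from -0.83 to -0.66, it passed in 2 of 8 cases (without WT replicate 4 or IIKO replicate 3), and the count of called genes ran from 0 to 1. Of the other 9 genes none passed under any alternative. Tgfb1 turned to -0.0116, Itgav to -0.00093 and Smad2 to -0.0135 after the further quantile normalization, which moved the median of all genes from -0.04 to -0.01. Leaving out single arrays, Tgfb1 ran from -0.0249 to 0.0797, Itgav from -0.0687 to 0.0964, Smad2 from -0.0040 to 0.0536, Tgfbr2 from -0.17 to -0.0090 and Smad3 from 0.0375 to 0.18. The called neighbours of Lrrc32 numbered 2 (Alg8 and Aamdc) after the further quantile normalization, 0 at a threshold of 0.01, and 0 to 2 with single arrays left out. The count of called pathway genes was 0 in every alternative run. Between arrays of the same replicate number, deviations from the group means correlated by 0.04, -0.01, -0.07 and 0.22 for numbers 1 to 4. For number 4 the best match in the other group had the same number, and for numbers 1 to 3 it had another. The array medians over all probe sets rose from number 1 to number 4 in both groups. Whether arrays of the same number were processed together was not tested. With the replicate numbers as a block the calls among all genes fell from 57 to 31, and Lrrc32 kept its difference of -0.74 (adjusted p = 0.0102). Probe-level data were not used here, so signal over background was not examined.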
